A study of Mus musculus with 6 samples.

Results

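The 10 genes examined here encode the enzymes that turn citrate and acetate into long-chain fatty acids and then lengthen and desaturate them. They were *Acly*, *Acss2*, *Acaca*, *Fasn*, *Elovl5*, *Elovl6*, *Scd1*, *Scd2*, *Fads1* and *Fads2*. They were chosen by name for their place in the pathway, with earlier results of these data known. The count table held 56748 genes, and all 10 were found in it. The study asked what lowering phosphoglycerate mutase (PGAM), a glycolytic enzyme, does to CD4 T cells while they become regulatory T cells (Tregs), and compared libraries labelled scrambled ASO (n = 3) with libraries labelled *Pgam* ASO (n = 3). Both groups were wild-type C57BL/6J naïve CD4 cells, taken from spleen and lymph nodes (the labels name splenocytes) of mice 6 to 10 weeks old and kept for 3 days under Treg polarizing conditions. Antisense oligonucleotides (ASOs), synthetic nucleic acids that pair with a target transcript, were added to the medium of both groups at 10 μM. Those of the treated group were directed at *Pgam* isoforms, and their sequences are proprietary. The cells were not sorted before polyA RNA was sequenced, so each library holds RNA of whole cultures.

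Total counts were 17588755, 18032805 and 16231127 in scrambled-labelled replicates 1, 2 and 3, and 16589933, 15860476 and 16803881 in *Pgam*-labelled replicates 1, 2 and 3. The study describes the 3 replicates as biological. The sources used here do not say whether each was a separate animal or a separate culture, so p-values measure the spread between these samples. The targeted gene *Pgam1* was counted 10655, 8847 and 11414 times in scrambled-labelled replicates 1 to 3 and 10601, 10299 and 11949 times in the *Pgam*-labelled ones. *Pgam2*, which encodes the muscle isoform, was counted 93, 125 and 46 times against 48, 42 and 44 times. The groups overlapped for both genes. The log2 fold change was 0.18 for *Pgam1* (adjusted p = 0.331, edgeR) and -0.84 for *Pgam2* (adjusted p = 0.0854, edgeR). Neither targeted transcript was called at the threshold of 0.05 in this fit. These are counts of RNA, so the level of PGAM protein cannot be read from them. *Pgam2* was called lower without the filter on low counts (adjusted p = 0.0292, edgeR) and without scrambled-labelled replicate 3, at a log2 fold change of -1.115 (adjusted p = 0.0145, edgeR). Without scrambled-labelled replicate 2 its log2 fold change was -0.56 (adjusted p = 0.286, edgeR). *Pgam1* was called under no alternative, with a log2 fold change from 0.047 to 0.33 as each library was left out. It shared 37.1% of its 31-base stretches with *Pgam1-ps2*, so the division of reads between them is uncertain. Libraries are named by their labels throughout.

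Fatty acid synthesis starts in the cytosol, where acetyl-CoA is made from citrate or acetate, carboxylated to malonyl-CoA and joined into palmitate by fatty acid synthase with NADPH as the reductant. Elongases and desaturases of the endoplasmic reticulum then make longer and less saturated chains, both from palmitate and from the essential fatty acids of the diet. Transcription of these genes is driven by SREBP and LXR factors, and dividing T cells draw on the pathway for membrane lipids.

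On GRCm38, *Acly* (ENSMUSG00000020917), *Acaca* (ENSMUSG00000020532) and *Fasn* (ENSMUSG00000025153) lie on chromosome 11, although far apart. *Scd1* (ENSMUSG00000037071) spans 44394455 to 44407879 of chromosome 19, near *Scd2* (ENSMUSG00000025203), which spans 44293674 to 44306864. *Fads1* (ENSMUSG00000010663) spans 10182888 to 10196877 of the same chromosome and *Fads2* (ENSMUSG00000024665) spans 10062765 to 10101746. *Acss2* (ENSMUSG00000027605) lies on chromosome 2, *Elovl5* (ENSMUSG00000032349) on chromosome 9 and *Elovl6* (ENSMUSG00000041220) on chromosome 3.

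Promoter windows, from 250 bases before to 50 bases after the annotated start, were matched by symbol in RefSeq (GRCm38.p6) for 7 of the 10 genes, which leaves *Scd1*, *Scd2* and *Fads1* without a window. Each window was searched on both strands for CACGTG, TCACNCCAC (the core of an SREBP element), CCAAT and GGGCGG. The letters CCAAT stood in 4 of the 7 windows, those of *Acly*, *Fasn*, *Acss2* and *Elovl5*, and in 37.4% of all 32851 windows. The letters GGGCGG stood in the 3 windows of *Acly*, *Acss2* and *Fads2*, and in 35.7% of all windows. CACGTG stood only in the window of *Elovl5* among the 7, and in 7.15% of all windows. TCACNCCAC stood in 0 of the 7 windows and in 1.24% of all windows. The window of *Acaca*, chr11:84195188-84195487, lies within the annotated gene, which spans 84129672 to 84401651, and like that of *Elovl6* it held none of the 4 motifs. The windows of *Acly*, *Fasn* and *Fads2* are shown because transcripts of these genes were higher in the *Pgam*-labelled libraries, and that of *Elovl5* because its log2 fold change was below 0. The window of *Acaca*, whose transcript was also higher, held no match and is not printed. Printed windows read 5′ to 3′ on the strand of the gene, with matches to any of the 4 motifs, on either strand, in capitals. In the *Fasn* window 2 of the 3 CCAAT matches, on opposite strands, overlap in a run of capitals.
Acly (chr11:100527951-100528250, minus strand): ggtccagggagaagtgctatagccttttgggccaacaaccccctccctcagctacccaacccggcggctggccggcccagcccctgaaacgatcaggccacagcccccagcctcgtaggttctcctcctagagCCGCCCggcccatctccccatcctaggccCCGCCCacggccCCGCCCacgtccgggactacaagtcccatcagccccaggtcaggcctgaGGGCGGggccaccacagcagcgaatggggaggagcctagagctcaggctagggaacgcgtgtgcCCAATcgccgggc
Fasn (chr11:120824498-120824797, minus strand): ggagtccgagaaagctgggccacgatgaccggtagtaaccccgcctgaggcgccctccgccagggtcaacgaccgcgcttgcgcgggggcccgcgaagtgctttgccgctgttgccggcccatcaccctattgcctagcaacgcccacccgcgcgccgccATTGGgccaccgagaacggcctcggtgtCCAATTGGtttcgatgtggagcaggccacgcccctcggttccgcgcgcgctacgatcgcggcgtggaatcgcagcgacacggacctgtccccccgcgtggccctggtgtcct
Fads2 (chr19:10101454-10101753, minus strand): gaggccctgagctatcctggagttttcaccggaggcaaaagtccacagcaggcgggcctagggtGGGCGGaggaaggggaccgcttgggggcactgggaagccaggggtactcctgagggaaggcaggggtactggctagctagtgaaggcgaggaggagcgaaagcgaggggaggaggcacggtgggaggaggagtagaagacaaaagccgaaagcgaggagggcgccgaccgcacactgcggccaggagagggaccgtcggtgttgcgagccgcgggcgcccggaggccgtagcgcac
Elovl5 (chr9:77917115-77917414, plus strand): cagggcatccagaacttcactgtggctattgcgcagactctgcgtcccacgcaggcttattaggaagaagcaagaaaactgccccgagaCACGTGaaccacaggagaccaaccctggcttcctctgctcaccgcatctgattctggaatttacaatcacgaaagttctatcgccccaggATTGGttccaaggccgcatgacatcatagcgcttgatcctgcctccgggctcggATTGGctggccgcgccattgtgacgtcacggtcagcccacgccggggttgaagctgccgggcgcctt

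Across the 10 genes, 6 were higher in the *Pgam*-labelled libraries at an adjusted p under 0.05, 0 were lower, and 4 did not pass (quasi-likelihood test of edgeR, p-values adjusted by Benjamini-Hochberg over 14936 tested genes). The 6 were *Scd1*, *Fads2*, *Fasn*, *Acaca*, *Acly* and *Scd2*. Of all tested genes, 8.03% were called higher and 9.15% were called lower by the same test. All 10 passed the filter on low counts. At an unadjusted p under 0.05 edgeR also placed 0 of the 10 lower, and so did DESeq2 and limma-voom at an adjusted p under 0.05. For 8 of the 10 genes every *Pgam*-labelled library lay above every scrambled-labelled library, an arrangement found for 19.6% of all tested genes. The median log2 fold change of the 10 was 0.51, against -0.0061 over all tested genes, and 9 of the 10 values were above 0. Summed over the 10 genes, expression was 2386 ± 287 CPM (SD, n = 3) in the scrambled-labelled libraries and 3422 ± 118 CPM (SD, n = 3) in the *Pgam*-labelled ones. CPM here is a gene's count scaled to the depth of its library with edgeR's TMM factors. The cultures were bulk samples, so more cells that express a gene and more of its RNA per cell cannot be told apart. The count of 6 rested in part on *Pgam*-labelled replicate 2. Without that library only *Acaca* and *Scd1* passed, 2 of the 10, and 391 of all tested genes were called in place of 2565. Over all tested genes the count was 620 without scrambled-labelled replicate 1, 1256 without replicate 2 of that group, and 871 without *Pgam*-labelled replicate 1.

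**Figure D1:**
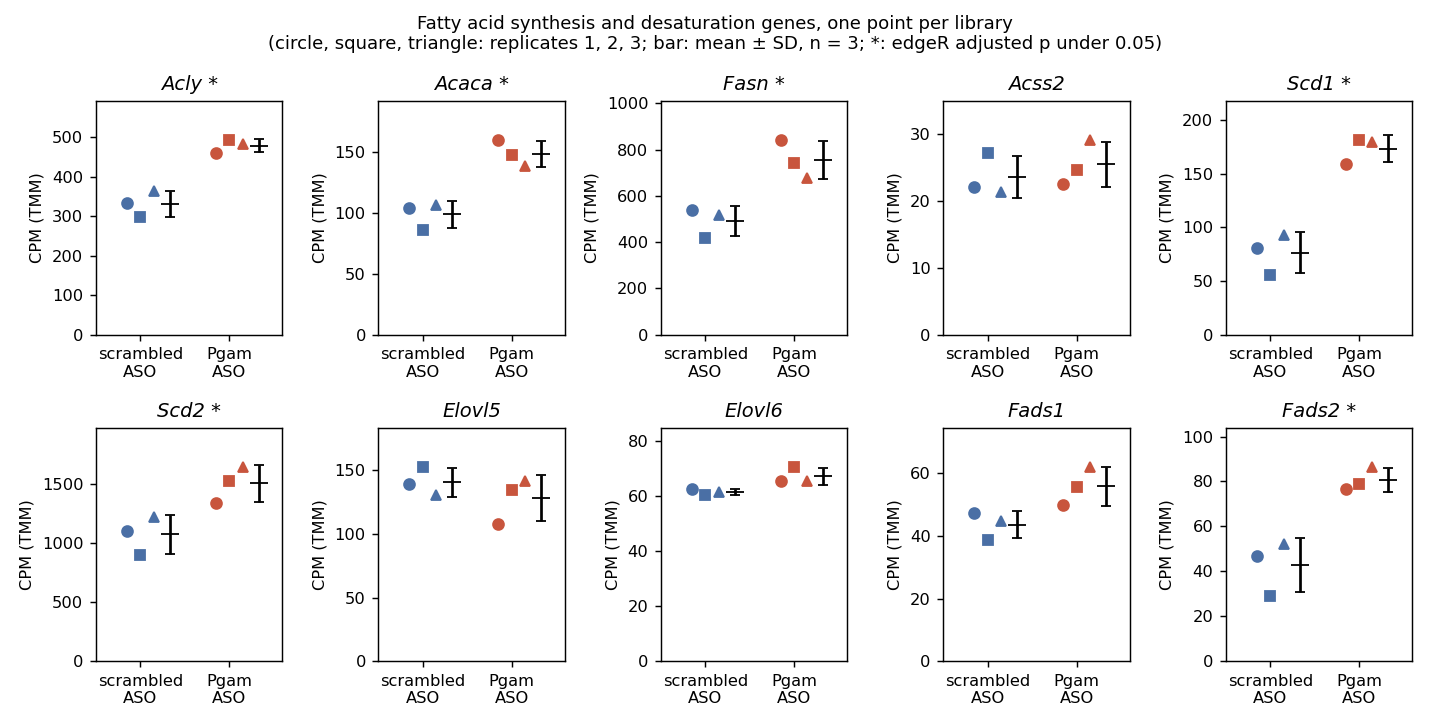
TMM-scaled CPM (vertical axes from 0) of the 10 genes in each of the 6 libraries, with the mean and SD of the 3 replicates beside the points. For 8 genes the *Pgam*-labelled points lie above the scrambled-labelled ones, whereas *Acss2* and *Elovl5* overlap.

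Cytosolic acetyl-CoA comes from 2 of these enzymes. *Acly* encodes ATP citrate lyase, which splits citrate exported from mitochondria. It was expressed at 332, 298 and 364 CPM in scrambled-labelled replicates 1, 2 and 3, and at 461, 494 and 482 CPM in *Pgam*-labelled replicates 1, 2 and 3. The lowest *Pgam*-labelled value was thus above the highest scrambled-labelled value. *Acly* was 1.45-fold higher in the *Pgam*-labelled libraries, a log2 fold change of 0.53 with a standard error of 0.091 and a 95% interval from 0.33 to 0.73 (adjusted p = 0.00692, edgeR). Without *Pgam*-labelled replicate 2 the adjusted p from edgeR was 0.0552, the highest of a range that began at 0.00311 as each library was left out, while the log2 fold change was 0.51. *Acss2* encodes the cytosolic enzyme that makes acetyl-CoA from acetate. Its values were 22.1, 27.2 and 21.4 CPM in the scrambled-labelled libraries and 22.6, 24.6 and 29.2 CPM in the *Pgam*-labelled libraries. The groups overlapped, with scrambled-labelled replicate 2 above all but *Pgam*-labelled replicate 3. The log2 fold change of *Acss2* was 0.11 with a 95% interval from -0.19 to 0.42, which includes 0 (adjusted p = 0.593, edgeR). As each library was left out it ranged from 0.0099, without *Pgam*-labelled replicate 3, to 0.23, without scrambled-labelled replicate 2.

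Within a library, the ratio of *Acly* to *Acss2* counts does not depend on scaling between libraries. On the log2 scale it was 3.91, 3.45 and 4.09 in scrambled-labelled replicates 1 to 3 and 4.35, 4.32 and 4.04 in the *Pgam*-labelled ones. The *Pgam*-labelled replicate 3 lay just under scrambled-labelled replicate 3, so the groups overlapped. The mean difference in this ratio was 0.42 with a standard error of 0.21 (exact permutation test, two-sided, p = 0.2). It ranged from 0.24, without scrambled-labelled replicate 2, to 0.56 as each library was left out. With 3 libraries against 3 this test cannot give a p below 0.1. *Acss2* made up 6.72 ± 1.46% (SD, n = 3) of the summed CPM of the pair in the scrambled-labelled libraries and 5.05 ± 0.573% (SD, n = 3) in the *Pgam*-labelled ones.

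*Acaca* and *Fasn* carry the committed step and the synthesis of the chain. *Acaca* encodes acetyl-CoA carboxylase, which makes malonyl-CoA. It was expressed at 105, 86.5 and 107 CPM in scrambled-labelled replicates 1 to 3 and at 160.4, 148 and 139 CPM in *Pgam*-labelled replicates 1 to 3. Every *Pgam*-labelled library was above all the scrambled-labelled ones. The log2 fold change was 0.59 with a standard error of 0.10, or 1.501-fold (adjusted p = 0.00739, edgeR). As each library was left out, the adjusted p from edgeR ranged from 0.00576 to 0.04915. The highest, just under the threshold, came without *Pgam*-labelled replicate 2. *Acaca* shared 33.5% of its 31-base stretches with other genes, 31.7% with the pseudogene *Gm5182*, so that the division of reads between them is uncertain. *Gm5182* itself was counted 300, 259 and 307 times in the scrambled-labelled libraries and 309, 327 and 325 times in the *Pgam*-labelled ones, against 1601 to 2583 counts of *Acaca*. With the counts of both summed, a setting chosen after seeing the data, the log2 fold change was 0.54 (adjusted p = 0.0101, edgeR), within a range of adjusted p over the other tools, scalings, filters and block of 3.39e-07 to 0.0225.

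*Fasn* encodes fatty acid synthase, and no 31-base stretch of it was shared with another gene. Its values were 537, 416 and 517 CPM in the scrambled-labelled libraries and 842, 742 and 679 CPM in the *Pgam*-labelled libraries. The groups did not overlap, and within each group replicate 1 was highest. *Fasn* was 1.54-fold higher in the *Pgam*-labelled libraries, with a log2 fold change of 0.62, a standard error of 0.12 and a 95% interval from 0.36 to 0.88 (adjusted p = 0.00984, edgeR). Without *Pgam*-labelled replicate 2 the adjusted p was 0.0574 in edgeR, at a log2 fold change of 0.64, and with the other libraries left out the lowest was 0.00712. *Acaca* and *Fasn* had the profiles closest to each other. Once each gene's log2 CPM was centred on its mean over the 6 libraries, they differed by a root mean square of 0.046, less than either differed from any of the other genes compared.

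Neither of the elongases passed the test. *Elovl6* encodes the elongase that extends palmitate to stearate. Its expression was 62.9, 60.5 and 61.5 CPM in scrambled-labelled replicates 1 to 3 and 65.5, 70.8 and 65.5 CPM in the *Pgam*-labelled ones. These groups did not overlap, but the log2 fold change was 0.13 with a 95% interval from -0.053 to 0.31, which includes 0 (adjusted p = 0.293, edgeR), and it ranged from 0.089 to 0.15 as each library was left out. *Elovl6* also had the smallest spread of the 10 genes among the scrambled-labelled libraries, a coefficient of variation of 1.89%. *Elovl5* encodes an elongase of polyunsaturated chains. It was expressed at 139, 153 and 130.4 CPM in the scrambled-labelled libraries and at 108, 135 and 142 CPM in the *Pgam*-labelled libraries. The *Pgam*-labelled replicate 1 was the lowest of the 6, and the other 2 libraries of its group lay within the range of the scrambled-labelled libraries. *Elovl5* was the only one of the 10 genes with a log2 fold change below 0, at -0.14 with a 95% interval from -0.39 to 0.11 (adjusted p = 0.422, edgeR), and it ranged from -0.21 to -0.023 as each library was left out, nearest to 0 without *Pgam*-labelled replicate 1.

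The log2 ratio of *Elovl5* to *Elovl6* counts was 1.15, 1.34 and 1.09 in scrambled-labelled replicates 1 to 3 and 0.72, 0.93 and 1.12 in the *Pgam*-labelled ones. Only *Pgam*-labelled replicate 3 reached into the range of the other group. The mean difference was -0.27 with a standard error of 0.14 (exact permutation test, two-sided, p = 0.2), and between -0.17, without *Pgam*-labelled replicate 1, and -0.37 as each library was left out. *Elovl6* accounted for 30.5 ± 1.91% (SD, n = 3) of the summed CPM of these elongases in the scrambled-labelled libraries and 34.6 ± 3.14% (SD, n = 3) in the *Pgam*-labelled ones.

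Stearoyl-CoA desaturases place a double bond in saturated chains to give oleate and palmitoleate. *Scd1* was expressed at 80.4, 56.0 and 93.3 CPM in scrambled-labelled replicates 1, 2 and 3, and at 159, 182 and 179.7 CPM in *Pgam*-labelled replicates 1, 2 and 3. Every *Pgam*-labelled library was above the highest scrambled-labelled value, and scrambled-labelled replicate 2 was the lowest. *Scd1* had the largest fold change of the 10 genes, 2.27-fold, or a log2 fold change of 1.18 with a standard error of 0.16 and a 95% interval from 0.81 to 1.55 (adjusted p = 0.00335, edgeR). By log2 fold change it ranked 210 from the top of all 14936 tested genes. It was called with each library left out in turn, with a log2 fold change between 0.9976 and 1.35.

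*Scd2*, the paralog of *Scd1*, was expressed at 1107, 899 and 1224 CPM in the scrambled-labelled libraries and at 1344, 1531 and 1650 CPM in the *Pgam*-labelled libraries. The groups did not overlap, although scrambled-labelled replicate 3 and *Pgam*-labelled replicate 1 were close. The log2 fold change of *Scd2* was 0.49 with a standard error of 0.12, or 1.40-fold (adjusted p = 0.0256, edgeR). Without scrambled-labelled replicate 1 the adjusted p from edgeR was 0.0817 at a log2 fold change of 0.50. Without *Pgam*-labelled replicate 2 it was 0.112 at 0.48, the highest of a range that began at 0.00947 as each library was left out. *Scd1* shared 5.18% of its 31-base stretches with *Scd2* and 5.84% with *Scd3*, and *Scd3* was counted at most 24 times in any library. Counted together, *Scd1* and *Scd2* came to 1153 ± 183.5 CPM (SD, n = 3) in the scrambled-labelled libraries and 1682 ± 165 CPM (SD, n = 3) in the *Pgam*-labelled ones.

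The balance of the pair was compared within each library. *Scd1* made up 6.77%, 5.87% and 7.08% of the summed CPM in scrambled-labelled replicates 1 to 3 and 10.6%, 10.6% and 9.82% in the *Pgam*-labelled ones. No library of either group reached the range of the other. The log2 ratio of *Scd1* to *Scd2* counts averaged -3.83 in the scrambled-labelled libraries and -3.12 in the *Pgam*-labelled ones. The difference was 0.72 with a standard error of 0.096 (two-sided exact permutation test, p = 0.1, the smallest this design allows). It ranged from 0.63 to 0.78 as each library was left out. Adjusted over the 4 ratios compared, each of the exact p-values was 0.2.

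*Fads2* and *Fads1* encode the desaturases of the polyunsaturated series, which act before and after elongation of linoleic and alpha-linolenic acid, respectively. *Fads2* was expressed at 46.9, 29.2 and 52.2 CPM in the scrambled-labelled libraries and at 76.5, 78.9 and 86.6 CPM in the *Pgam*-labelled libraries. The groups did not overlap, and scrambled-labelled replicate 2 was again the lowest library. *Fads2* was 1.89-fold higher in the *Pgam*-labelled libraries, a log2 fold change of 0.92 with a standard error of 0.19 and a 95% interval from 0.50 to 1.34 (adjusted p = 0.0156, edgeR). It ranked 342 from the top by log2 fold change. Without *Pgam*-labelled replicate 2 the adjusted p from edgeR was 0.0673 at a log2 fold change of 0.93, and the lowest with a library left out was 0.00207. *Fads1* was expressed at 47.3, 38.8 and 44.7 CPM in the scrambled-labelled libraries and at 49.9, 55.6 and 62.2 CPM in the *Pgam*-labelled libraries. Its groups did not overlap but nearly met, between scrambled-labelled replicate 1 and *Pgam*-labelled replicate 1. The log2 fold change of *Fads1* was 0.36 with a 95% interval from 0.11 to 0.61, just outside the threshold (adjusted p = 0.0529, edgeR). DESeq2 called it (adjusted p = 0.0360), as did edgeR without a filter on low counts (adjusted p = 0.0129), while the highest adjusted p from the other tools, scalings, filters and block was 0.0973. With each library left out in turn *Fads1* was not called, at an adjusted p from edgeR of 0.0607 to 0.156.

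The log2 ratio of *Fads1* to *Fads2* counts was 0.012, 0.41 and -0.22 in scrambled-labelled replicates 1 to 3 and -0.62, -0.51 and -0.48 in the *Pgam*-labelled ones. The scrambled-labelled values lay on either side of 0, where counts of the pair are equal, and *Fads2* exceeded *Fads1* in every *Pgam*-labelled library. The difference was -0.60 with a standard error of 0.19, and the groups did not overlap (exact permutation test, two-sided, p = 0.1). As each library was left out it ranged from -0.75 to -0.43. *Fads2* made up 48.9 ± 5.55% (SD, n = 3) of the summed CPM of the pair in the scrambled-labelled libraries and 59.1 ± 1.22% (SD, n = 3) in the *Pgam*-labelled ones.

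**Figure D2:**
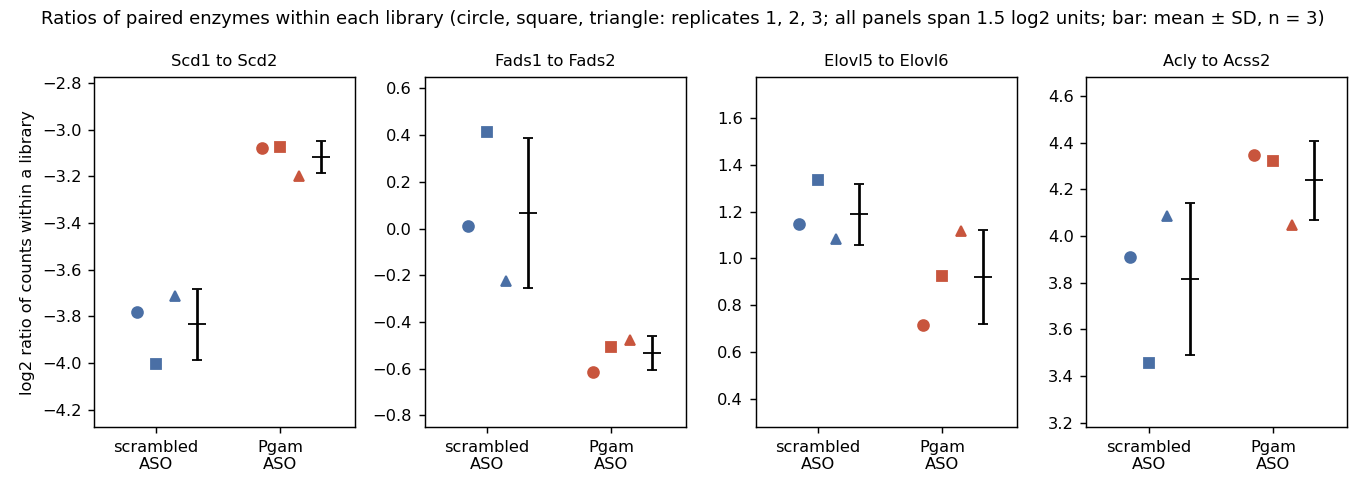
Log2 ratios of counts within each library for 4 pairs of enzymes, with one point per library and the mean and SD of 3 replicates beside the points. The groups are apart for *Scd1* to *Scd2* (difference 0.72) and *Fads1* to *Fads2* (difference -0.60), and they overlap for *Elovl5* to *Elovl6* and *Acly* to *Acss2*.

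To set the genes against each other, CPM were divided by the length of the longest annotated transcript in kilobases (kb). On this scale *Scd2* had the highest level in the scrambled-labelled libraries, 197 ± 30.2 CPM per kb (SD, n = 3), and *Acly* followed at 74.9 ± 7.41 CPM per kb. *Elovl5* at 50.6 ± 4.10 CPM per kb and *Fasn* at 48.8 ± 6.47 CPM per kb came next, and their libraries overlapped. Below them, *Scd1* had a level of 15.8 ± 3.92, *Fads2* of 13.6 ± 3.84 and *Fads1* of 12.6 ± 1.26 CPM per kb, and each of these neighbours overlapped with the next. *Acaca* at 10.4 ± 1.17 CPM per kb and *Elovl6* at 10.4 ± 0.195 CPM per kb overlapped as well. *Acss2* had the lowest level, 6.53 ± 0.874 CPM per kb. In the *Pgam*-labelled libraries the order was the same except that *Fasn*, at 75.1 ± 8.19 CPM per kb, stood above *Elovl5*, at 46.1 ± 6.52 CPM per kb, with no overlap. There *Scd1* reached 35.9 ± 2.60 CPM per kb and *Fads2* 25.6 ± 1.68 CPM per kb, and the only neighbours that overlapped were *Fads1* and *Acaca*. The order depends on the length used. With the median length of coding transcripts, *Elovl5* came to 221 CPM per kb and *Acaca* to 112 CPM per kb in the scrambled-labelled libraries, which placed them at ranks 1 and 3.

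**Figure D3:**
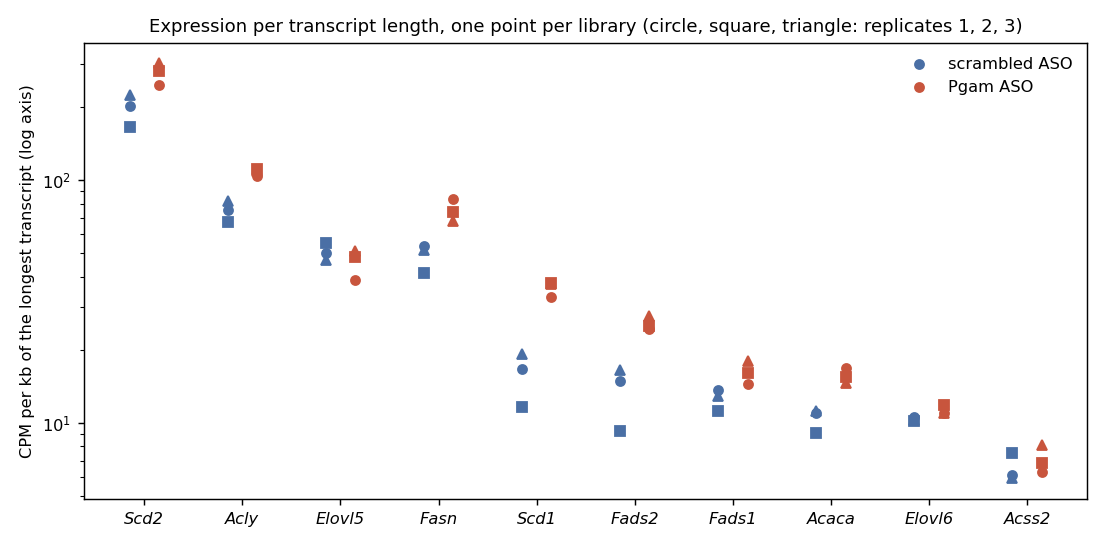
Level of each gene in CPM per kb of the longest transcript (log axis), with one point per library in each group. *Scd2* is highest in both groups, and *Scd1* moves from a mean of 15.8 to 35.9 CPM per kb.

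The libraries of a group also differed among themselves in a shared way. The scrambled-labelled replicate 2 held the lowest CPM of its group for 8 of the 10 genes and the highest for the remaining *Acss2* and *Elovl5*. Among the *Pgam*-labelled libraries, replicate 1 was lowest for 7 of the 10 genes. Coefficients of variation in the scrambled-labelled libraries were largest for *Fads2*, at 28.3%, and *Scd1*, at 24.7%, and in the *Pgam*-labelled ones the same genes varied by 6.55% and 7.25%. With scrambled-labelled replicate 2 left out, the same 6 genes were called, with log2 fold changes of 0.9976 for *Scd1*, 0.70 for *Fads2*, 0.52 for *Fasn*, 0.49 for *Acaca*, 0.46 for *Acly* and 0.37 for *Scd2*.

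**Figure D4:**
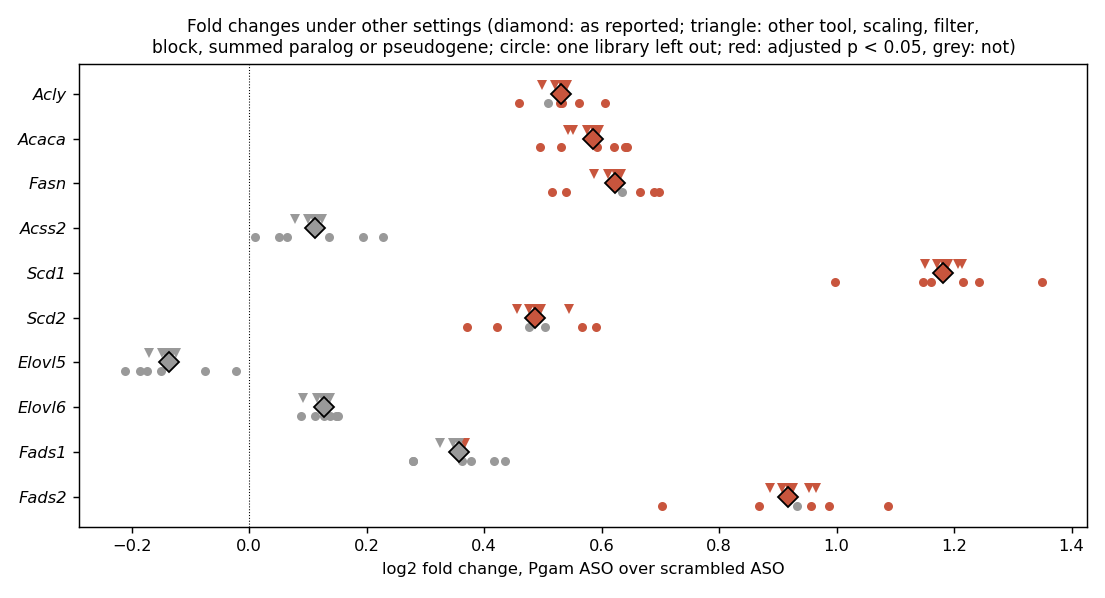
Log2 fold change of each gene as reported and under other tools, scalings, filters and left-out libraries. *Scd1* stays between 0.9976 and 1.35 with a library left out, and *Elovl5* stays below 0 at every point.

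Markers were read in the same libraries. All 7 CD4 T cell markers were expressed, with *Cd4* the most abundant. Their summed level was 2699, 2863 and 2537 CPM in scrambled-labelled replicates 1 to 3 and 2167, 2241 and 2378 CPM in the *Pgam*-labelled ones, and 6 of the 7 were lower with no overlap and at an unadjusted p under 0.05 (edgeR). The share of all tested genes with both traits is not given here. Of the 6, *Cd28* (log2 fold change -0.66) and *Trac* (-0.30) passed the adjusted threshold in edgeR, and DESeq2 called 3. By the adjusted threshold in edgeR, 9.15% of all tested genes were lower. Of the 5 Treg markers, *Foxp3* (log2 fold change -1.41) and *Ikzf2* (-0.57) were lower and *Il2ra* (0.52), the most abundant, was higher. At an unadjusted p under 0.05 edgeR also placed *Ctla4* (-0.28) lower, with no overlap, and DESeq2 called 3 of the 5 lower. The sum was 3029, 2886 and 3331 CPM against 3722, 3750 and 3378 CPM. *Foxp3* stood at 282, 371 and 222 CPM in the scrambled-labelled libraries and at 89.7, 109 and 131 CPM in the *Pgam*-labelled libraries. The 2 CD8 markers summed to 11.3, 13.5 and 10.8 CPM against 14.6, 10.9 and 15.7 CPM. *Cd8a* was higher (log2 fold change 1.12, adjusted p = 0.0286, edgeR). *Cd8b1*, the more abundant, had a log2 fold change of -0.20 and was not called (adjusted p = 0.454, edgeR). Of the 5 B cell markers, all tested, and the 3 of 5 myeloid markers tested, 0 were called by edgeR, with 2 and 1 at an unadjusted p under 0.05, 2 and 0 called by DESeq2 and 0 by limma-voom. Their sums ran from 6.63 to 11.6 CPM, with *Cd79a* most abundant, and from 5.52 to 8.70 CPM, with *Cd68* most abundant. The adipocyte markers *Plin1*, *Lep* and *Cidec* were at 0 in every library, and *Adipoq* and *Fabp4* had at most 4 counts. Erythroid markers had at most 27 counts, with *Alas2* the most abundant and *Hba-a2* at 0. The share of counts from mitochondrially encoded genes was 1.95%, 2.12% and 1.93% in the scrambled-labelled libraries and 1.24%, 1.44% and 1.32% in the *Pgam*-labelled ones. Between the groups, the CD4 marker sum, *Foxp3* and the mitochondrial share were lower where the summed CPM of the 10 genes was higher. That sum was 2479, 2064 and 2615 CPM in scrambled-labelled replicates 1 to 3 and 3289, 3461 and 3515 CPM in the *Pgam*-labelled ones. Among scrambled-labelled libraries *Foxp3* and the CD4 marker sum were highest in replicate 2, where it was lowest. Among *Pgam*-labelled ones they rose with it from replicate 1 to 3. The part of these differences in the result was not tested.

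Other genes of the pathway, with those of cholesterol synthesis and uptake, were followed in 8 lists. The lists held 105 genes, also chosen with earlier results of these data known. Of these, 93 were tested, 26 were higher and 1 was lower in the *Pgam*-labelled libraries (edgeR). Of all tested genes 8.03% were called higher and 9.15% lower. The 22 cholesterol genes held 15 of the 26 higher calls. The 27 calls fell to 5 without *Pgam*-labelled replicate 2, to 6 without scrambled-labelled replicate 1, to 13 without *Pgam*-labelled replicate 1 and to 16 without scrambled-labelled replicate 2. They rose to 29 without *Pgam*-labelled replicate 3 and to 38 without scrambled-labelled replicate 3. Among 10 genes that supply the synthesis enzymes with citrate and NADPH the median log2 fold change was 0.37. Those higher included *Me1*, which encodes cytosolic malic enzyme (log2 fold change 1.75, at 4 to 27 counts a library), *Cs* (0.48), which makes citrate in mitochondria, and *Pgd* (0.39) and *G6pdx* (0.33) of the pentose phosphate pathway. Of the 12 other synthesis, elongation and desaturation enzymes tested, *Elovl4*, an elongase of very long chains, was the 1 that passed (log2 fold change 1.18, adjusted p = 0.0439, edgeR), at 20 to 79 counts a library. Limma-voom called 0 of the 12, and the median was 0.14. Of 10 genes of fatty acid uptake and activation, *Acsl6* (log2 fold change 1.42, adjusted p = 0.000768, edgeR) and *Acsl4* (0.37), both acyl-CoA synthetases, were higher. At an unadjusted p under 0.05 edgeR placed 4 of the 10 higher and 2 lower, *Slc27a1* (-0.60) and *Cd36* (-1.045), and DESeq2 called 1 lower. In glycerolipid assembly *Agpat3* was higher (log2 fold change 0.46) and *Dgat2*, which makes triglyceride, was lower (-1.08), of 11 tested. In mitochondrial fatty acid synthesis 0 of 9 genes passed, with 3 higher at an unadjusted p under 0.05 and 1 called by DESeq2 and 0 by limma-voom. Of 7 genes that control acetyl-CoA carboxylase 0 passed, with 1 higher and 1 lower at an unadjusted p under 0.05 and 0 called by DESeq2 or limma-voom.

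The regulators were read in the same way, and 2 of 12 tested were higher, with 7 of the 12 log2 fold changes above 0 and a median of 0.028. *Insig1*, which holds SREBP in the endoplasmic reticulum and is itself an SREBP target, stood at 94.0, 70.8 and 96.7 CPM in the scrambled-labelled libraries and at 116, 131 and 131 CPM in the *Pgam*-labelled libraries. Its groups did not overlap, and its log2 fold change was 0.53 (adjusted p = 0.0192, edgeR). Without scrambled-labelled replicate 1 the adjusted p of *Insig1* in edgeR was 0.0538 at a log2 fold change of 0.59, and without *Pgam*-labelled replicate 2 it was 0.0951 at 0.51, in a range from 0.0111. The other was *Mid1ip1*, whose product promotes polymerization of acetyl-CoA carboxylase (log2 fold change 0.43, adjusted p = 0.0321, edgeR). *Srebf1*, which encodes the SREBP of fatty acid synthesis, had a log2 fold change of 0.14 with a 95% interval from -0.075 to 0.35 (adjusted p = 0.337, edgeR). For *Srebf2* it was 0.17 (adjusted p = 0.178, edgeR), for *Scap* 0.15 (adjusted p = 0.277, edgeR) and for *Insig2* 0.052 (adjusted p = 0.727, edgeR). *Mbtps1*, which encodes a protease that cleaves SREBP, did not pass either (log2 fold change -0.26, adjusted p = 0.0690, edgeR). The groups did not overlap in the higher direction for 4 of the 12 regulators, an arrangement found for 19.6% of all tested genes. These were *Insig1*, *Mid1ip1*, *Srebf2* and *Scap*, and those of *Scap* nearly met at 98.6 CPM. In the lower direction the groups did not overlap for *Mbtps1*. Cholesterol synthesis and uptake genes, which share the SREBP factors among these regulators, were higher for 15 of 22, with a median log2 fold change of 0.50. The 2 largest were *Lss* (0.9993) and *Fdps* (0.92).

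Each of the 10 genes was compared with 102 other genes of the lists, 22 of them cholesterol genes, over the 6 libraries by the root mean square difference in centred log2 CPM. This distance includes the difference between the groups. The closest gene was a cholesterol gene for 5 of the 10. *Scd1* was nearest to *Lss* (0.13), *Fads2* to *Fdps* (0.077), *Scd2* to *Hmgcs1* (0.055), *Acly* to *Nsdhl* (0.056) and *Fads1* to *Stard4* (0.078). *Elovl6* was nearest to *Tecr* (0.0571), which encodes the last enzyme of the elongation cycle, and *Insig2* was almost as near (0.0574). For *Scd2* the second nearest was *Insig1* (0.057). *Elovl5* was nearest to *Oxsm* (0.060) and *Acss2* to *Gpam* (0.10), a larger distance than for any of the other 9 genes but *Scd1*.

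**Figure D5:**
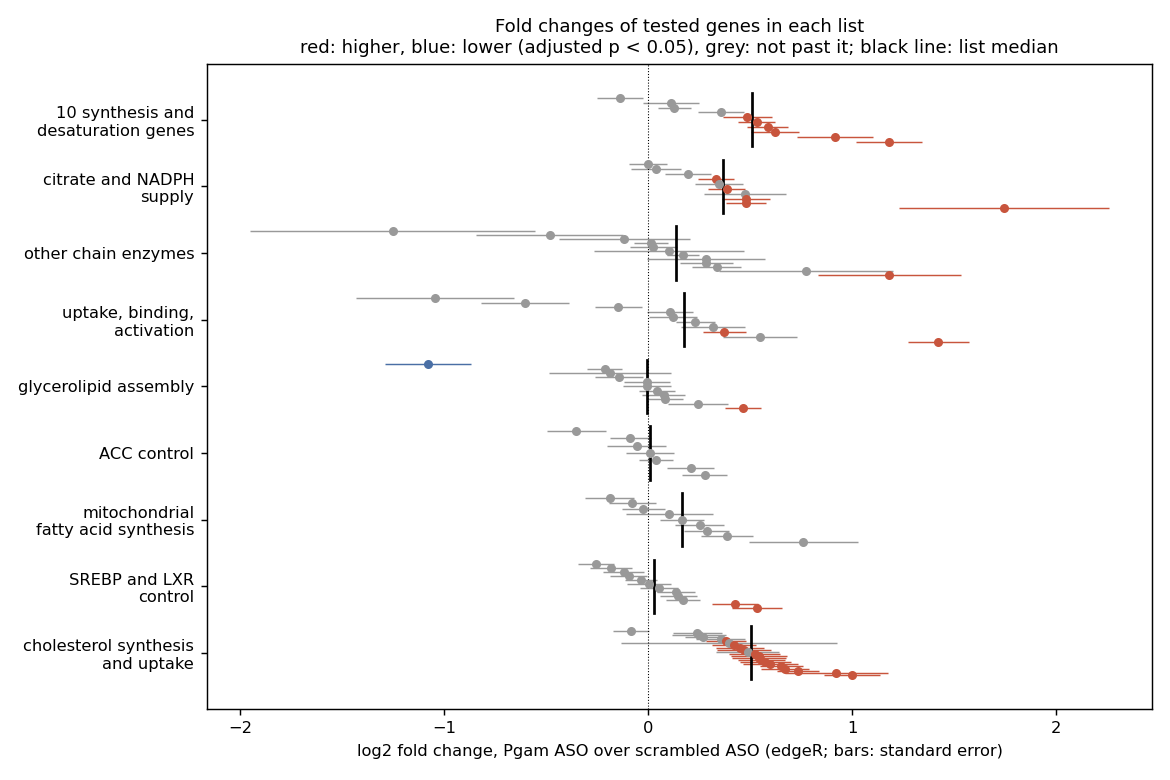
Log2 fold change with its standard error for every tested gene of the 10 and of 8 further lists, with the median of each list as a black line. The medians are highest for the 10 synthesis and desaturation genes (0.51) and the cholesterol genes (0.50), and near 0 for glycerolipid assembly (-0.0056), control of acetyl-CoA carboxylase (0.0087) and the SREBP and LXR regulators (0.028).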

How the data were processed

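Naïve murine CD4 cells were profiled by RNA-seq in 6 libraries. The authors deposited estimated counts per Ensembl gene from Kallisto, written as whole numbers and not normalized. GRCm38 is named in the submitters' processing notes. The Kallisto version, the annotation release and the way transcripts were summed and rounded are not given in the sources used here. Of 56748 gene IDs, 52073 matched a symbol. The 10 genes and the lists were chosen with earlier results of these data known. The groups were compared in edgeR 4.0.16 (R 4.3.3) after filterByExpr, which kept 14936 genes, and TMM scaling. The test was the quasi-likelihood F test with robust dispersions. Its p-values, which are two-sided, were adjusted by Benjamini-Hochberg, and genes under 0.05 were called. Ratios within a library used a prior count of 0.5 and an exact permutation test. Coordinates, transcript lengths and shared 31-base stretches came from GENCODE M21, which may differ from the index the authors used. No 2 libraries of a group agreed within sampling noise. All 10 genes, the regulators and the called genes of each list with the largest changes were named. The alternatives were DESeq2 1.42.0, limma-voom (limma 3.58.1), other scalings, filters, a replicate block and left-out libraries. The procedure was tested on simulated data. Not every called list gene is reported here.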

Additional observations from a re-analysis of the deposited data

How the results depend on the processing

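All 10 log2 fold changes kept their sign under every alternative, and DESeq2 or no filter on low counts added *Fads1* to the 6 genes called. At an adjusted p under 0.01, 4 of the 10 were called, with 453 of all tested genes and 5 of the pathway lists. Leaving out each library in turn gave 2 to 6 of the 10, 391 to 3484 of all tested genes and 5 to 38 pathway genes, from fewer libraries. Replicate numbers were not taken as pairs, since deviations of equal-numbered libraries from their group means correlated at 0.079, -0.039 and -0.28 across genes. With the number as a replicate block, 6 of the 10 genes, 1235 of all tested genes and 14 pathway genes were called. The block cannot change the mean differences in the 4 ratios, and the exact p within pairs was 0.25 for *Scd1* to *Scd2* and *Fads1* to *Fads2* and 0.5 for the other 2. Prior counts of 0 or 5 moved no ratio by more than the spread between replicates. Counts of *Me1*, *Elovl4* and *Scd3* were low, and their values are limited by depth.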
